A study of Mus musculus with 12 samples.

Results

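The HoxB cluster was examined as 1 window of 185 kb on mouse chromosome 11 (96050001 to 96235000, mm9), which holds Hoxb13 at its low end and Hoxb1 at its high end. The members are the islands of the histone mark H3K27me3 that overlap this window, 42 of 81097 islands in 8 lists, and the cluster has 10 protein-coding genes. ChIP-seq, in which chromatin bound by an antibody is sequenced, mapped the mark in sorted epithelial cells of the small intestine. The series title sets out to follow chromatin while adult stem cells of the gut are specified and differentiate. Per the labels, all mice had a mixed C57BL/6 CD1 background. The E12.5 and E14.5 groups are EpCAM-positive, CD31- and CD45-negative epithelium of embryos of these stages. The ISC group is Lgr5-positive stem cells, taken as the brightest cells of the Lgr5-EGFP reporter, and the AE group is enterocytes, sorted as EpCAM-positive, CD31- and CD45-negative cells; both come from males at postnatal day 60 that carry the Lgr5EGFP-Cre-ERT allele. That allele drives its reporter from the stem cell gene Lgr5, so enterocytes carry it too. Each group has 2 libraries, given as biological replicates in the design text. The labels used here name no allele for the embryos and do not say whether animals were pooled. The lists hold no expression values, so the sorted populations could not be checked against their marker genes.

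H3K27me3 is placed by the Polycomb complex PRC2 and marks chromatin in which genes are held silent. Hox genes encode homeodomain transcription factors that give cells their position along the body axis. They lie in clusters in the order in which they are used along that axis, from the anterior genes (Hoxb1, Hoxb2) through the central ones (Hoxb4, Hoxb5) to the posterior ones (Hoxb9, Hoxb13), and Polycomb covers whole Hox clusters in cells that do not use them. In the mouse, Hoxb13 stands apart from the other HoxB genes behind a long intergenic stretch.

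The gene order in RefSeq (GRCm38.p6) runs Hoxb13, Hoxb9, Hoxb8, Hoxb7, Hoxb6, Hoxb5, Hoxb3, Hoxb4, Hoxb2, Hoxb1 by the lowest coordinate of each gene, with Ttll6 next to Hoxb13 and Skap1 next to Hoxb1 as the flanking protein-coding genes. Hoxb3 comes before Hoxb4 in this order because its annotated span begins ahead of Hoxb4. That assembly differs from the build of the islands, so islands are given by mm9 position and by their place between the Hoxb13 and Hoxb1 ends, and no single gene between the ends was placed in or out of an island. The exception is ISC replicate 1, in which 1 island spans the window and with it every gene of the cluster.

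The cluster also carries a pair of microRNA genes, Mir196a-1 between Hoxb13 and Hoxb9 and Mir10a ahead of Hoxb4. Both lie between the ends of the window, so the single island of ISC replicate 1 spans them too. Their mature sequences, from RefSeq (GRCm38.p6), are shown as the non-coding genes of the cluster. Capitals mark the seed, bases 2 to 8. miR-196a is known to target Hoxb8 mRNA in the mouse.
mmu-miR-196a-5p: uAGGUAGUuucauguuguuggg
mmu-miR-10a-5p: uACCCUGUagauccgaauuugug
The seeds differ. A second gene copy elsewhere in the genome gives the same mature miR-196a-5p, so 2 entries share that sequence.

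Promoter sequences of 3 of the 10 members (Hoxb1, Hoxb4 and Hoxb8) matched the RefSeq table. CpG-rich promoters are a known feature of Polycomb targets, and the 250 bases before the start of Hoxb4, a central gene, and Hoxb1, the gene at the high end, are shown with each CpG in capitals. Both lie on the plus strand of chromosome 11. Their GRCm38.p6 coordinates cannot be set beside the mm9 coordinates of the islands.
Hoxb4, chr11:96318017-96318266: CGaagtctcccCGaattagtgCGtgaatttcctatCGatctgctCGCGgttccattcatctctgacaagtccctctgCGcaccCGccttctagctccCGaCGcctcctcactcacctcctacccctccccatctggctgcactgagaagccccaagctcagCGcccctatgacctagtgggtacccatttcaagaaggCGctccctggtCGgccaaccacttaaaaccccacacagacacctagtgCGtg
Hoxb1, chr11:96365508-96365757: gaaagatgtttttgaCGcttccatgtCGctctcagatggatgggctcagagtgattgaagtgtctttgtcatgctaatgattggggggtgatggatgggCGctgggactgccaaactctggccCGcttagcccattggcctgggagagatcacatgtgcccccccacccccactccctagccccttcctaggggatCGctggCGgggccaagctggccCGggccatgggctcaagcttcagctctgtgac
CpG, searched as the letters CG, occurred 14 times in the Hoxb4 stretch and 7 times in the Hoxb1 stretch. Over the table's full promoters of 300 bases, Hoxb1 held 10, Hoxb4 14 and Hoxb8 13 CpG, against a median of 7 over all 32851 promoters. Of all promoters, 56.5% held fewer than Hoxb1, 63.7% fewer than Hoxb4 and 62.1% fewer than Hoxb8, so these 3 are not among the CpG-richest. GC content was 59.3% for Hoxb1, 58.0% for Hoxb4 and 42.3% for Hoxb8, beside a median of 52.7%.

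Islands covered most of the HoxB window in every library. Coverage was 67.6% and 87.6% of the window in the E12.5 lists, 86.3% and 93.5% in the E14.5 lists, 100% and 85.3% for ISC, and 98.6% and 93.1% for AE. E12.5 replicate 1 was the lowest library, and the next lowest was ISC replicate 2. Over the whole genome the same lists covered 2.30% (ISC replicate 2) to 9.14% (ISC replicate 1), so the window held 10.9 to 37.0 times the genome-wide share. The genome was also cut into 14255 tiles of the window's length. At most 3 tiles reached the window's coverage in any list, and none did in AE replicate 1. The window was placed around a known cluster, whereas the tiles lie on a fixed grid that can split other domains. The tile counts are thus a description. The lists held 1171968 (E12.5 replicate 1) to 6627853 (ISC replicate 1) ChIP reads inside islands over 60.8 to 241 Mb; these totals move with how much was called and are not library depths, which are unknown. Replicates share their input, so the authors' folds also give how large one ChIP library was beside the other. Replicate 1 was 0.928 times the size of replicate 2 for E12.5, 1.63 times for E14.5, 1.09 times for ISC and 1.68 times for AE. The part of library size in the coverage was not tested.

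**Figure D1:**
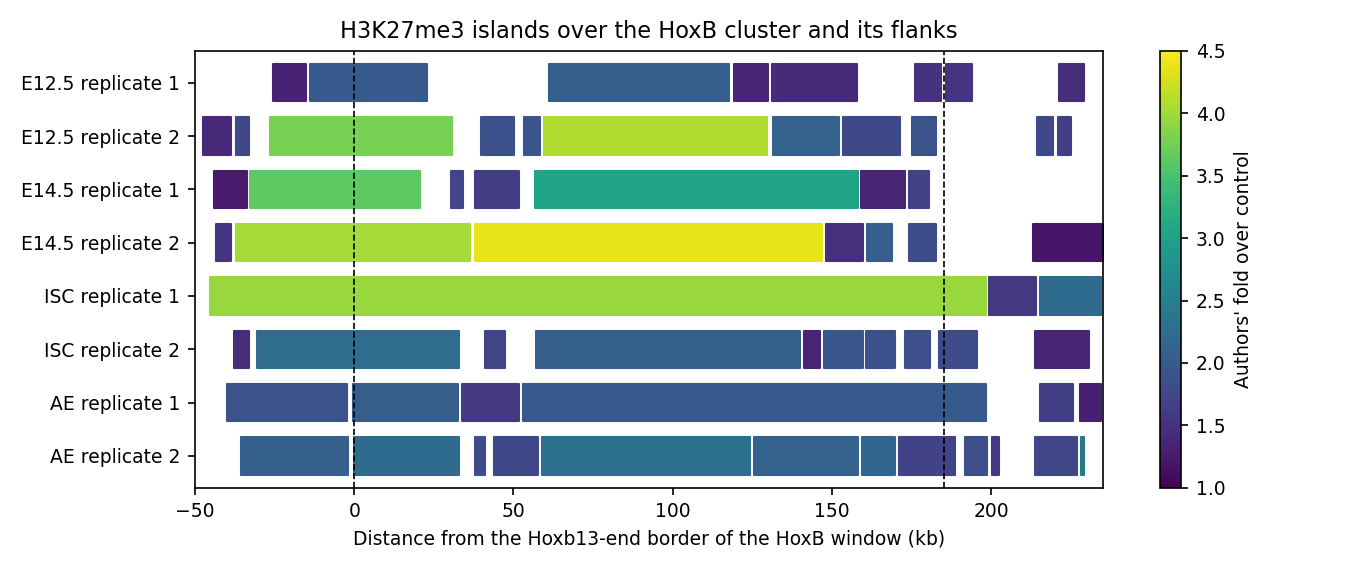
Islands of each library over the HoxB window (between the dashed lines) and 50 kb on either side, by distance in kb from the Hoxb13-end border. Colour is the authors' fold over control; ISC replicate 1 has a single island across the window, while the other 7 libraries have 3 to 8 islands, with breaks between the Hoxb13 end and the longest shared stretch.

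Of the window, 113 kb (61.1%) lay in an island in all 8 libraries, in 9 stretches, and no position was without an island in all of them. Over the genome, 2.96% of the 200 bp windows called in any library were called in all 8. The window was chosen with this pattern already known, so its share is a description. The longest shared stretch, 56.6 kb (96111201 to 96167800), ranked second among 1676 such stretches of the genome. It fills the central part of the window and is exactly 1 island of E12.5 replicate 1. The next in the window was 20.8 kb at the Hoxb13 end (96050001 to 96070800), ranked 58. It began at the border of the window, where AE replicate 2 had its first island over the cluster. The other 7 were short, 4.2 to 8.4 kb, and lay on the Hoxb1 side of the longest one. They were 96169201 to 96174200, 96175401 to 96179600, 96181601 to 96190000, 96191201 to 96196200, 96198001 to 96202200, 96203401 to 96207800 and 96226001 to 96230400.

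Against those over the 7 other longest shared stretches of the genome, the island over the HoxB stretch had a middling fold. The authors' fold of this island ranked between 4 and 6 of 8 in each list. In E14.5 replicate 2, for example, it was 4.38 in a range of 3.36 to 6.06, and in AE replicate 1 1.98 in a range of 1.67 to 2.36. HoxB thus ranked high among them by length but not by fold. Each fold is a value of the whole island, which can run far past the shared stretch. The HoxB island was 56.6 kb long in E12.5 replicate 1 and 243.6 kb in ISC replicate 1. The part of island length in these ranks was not tested.

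The island at the Hoxb1 end was weaker than that over the longest shared stretch in the 6 lists that separate them, beyond counting error in 5. In the lists with separate islands, those over the Hoxb13 end and over the longest shared stretch had about the same fold, and those at the Hoxb1 end a lower one. Fold here is the authors' enrichment of the ChIP library over its control, scaled for library size, and islands were compared by it within a list only. Intervals are exact 95% binomial ones from the ChIP and control reads of the island, and they cover counting error only. At E12.5 the fold over the longest shared stretch was 2.03 (1.88 to 2.19) in replicate 1 and 4.08 (3.85 to 4.33) in replicate 2. Over the Hoxb1-end shared stretch it was 1.49 (1.21 to 1.85) and 1.89 (1.54 to 2.33). At E14.5 the longest stretch had 3.04 (2.91 to 3.18) and 4.38 (4.19 to 4.58), and the Hoxb1 end 1.66 (1.38 to 2.02) and 1.82 (1.51 to 2.19). In all 4 embryonic lists these intervals did not overlap.

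In ISC replicate 2 the longest shared stretch had a fold of 2.05 (1.93 to 2.18) and the Hoxb1 end one of 1.83 (1.48 to 2.26), with overlapping intervals. In AE replicate 2 they were 2.28 (2.14 to 2.43) and 1.70 (1.47 to 1.96), which did not overlap. In ISC replicate 1 and AE replicate 1 a single island covered both stretches, with folds of 3.96 (3.84 to 4.09) and 1.98 (1.90 to 2.07), so no contrast could be drawn there. The Hoxb1-end fold divided by that of the longest stretch was 0.890 in ISC replicate 2 and 0.744 in AE replicate 2, against 0.737 and 0.463 in the E12.5 lists and 0.547 and 0.415 in the E14.5 lists. The adult and the embryonic values did not overlap, but AE replicate 2 and E12.5 replicate 1 were nearly equal, and only 2 of the 4 adult lists gave a value; the difference was not tested. The islands behind these folds differ in length between lists. A lower fold can mean fewer cells with the mark or less mark per cell, which cannot be told apart in sorted populations.

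The lower folds were not confined to the last stretch. In E12.5 replicate 1 the islands between the longest and the Hoxb1-end stretch had folds of 1.38 and 1.42, below that of the Hoxb1 end itself. In E12.5 replicate 2 they had 2.08 and 1.77, and in E14.5 replicate 2 1.49 and 2.04. E14.5 replicate 1 carried its strong island on to 96208000, and the next island had 1.37. In ISC replicate 2 the 3 islands of this interval had 1.35, 1.93 and 1.86, and in AE replicate 2 the 2 islands had 2.10 and 2.15, close to its longest stretch. The island over the longest stretch thus ended between 96167800 and 96208000 in the embryonic lists, and islands past it had a lower fold in each of them.

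**Figure D2:**
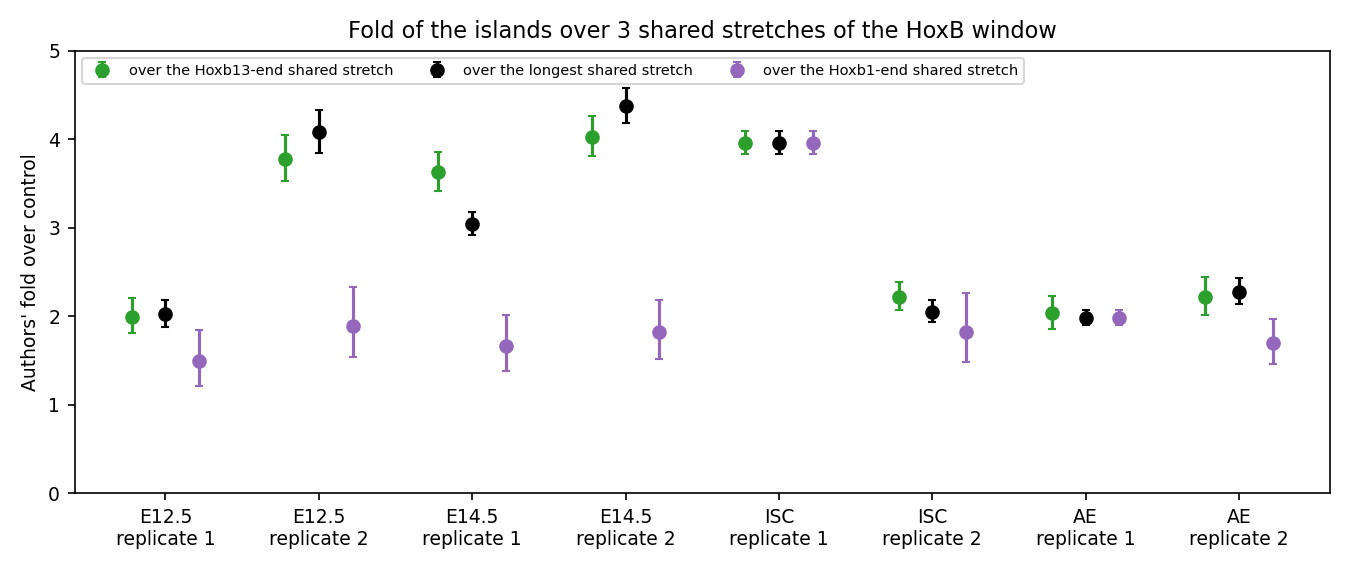
Authors' fold over control of the island over the Hoxb13-end, the longest and the Hoxb1-end shared stretch, for each library, with exact 95% counting intervals. In ISC replicate 1 the 3 points, and in AE replicate 1 the points of the longest and the Hoxb1-end stretch, are the same island; in the 4 embryonic libraries the Hoxb1-end points, 1.49 to 1.89, lie below the others.

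The Hoxb13-end island had a fold near that of the longest stretch, with counting intervals that overlapped in the lists that separate them, other than E14.5 replicate 1, where the Hoxb13 end was higher. Its fold divided by that of the longest stretch was 0.985 and 0.925 in the E12.5 lists, 1.19 and 0.920 in the E14.5 lists, 1.08 in ISC replicate 2, and 1.03 and 0.973 for AE. Within each list, 90.9% to 99.7% of all islands had a lower fold than the Hoxb13-end island. For the Hoxb1-end islands of the lists in which it was separate from the longest stretch, that share was 71.4% and 67.2% in the E12.5 lists, 58.1% and 60.2% in the E14.5 lists, 89.0% in ISC replicate 2 and 71.6% in AE replicate 2. In the embryonic lists the Hoxb1 end thus stood a little above the middle, and the Hoxb13 end near the top.

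Control reads over the cluster differed between lists. The HoxB islands held 20.3 and 20.6 control reads per kb for ISC and 19.1 and 19.7 for AE, against 21.8 and 21.4 in the E12.5 lists and 25.6 and 25.3 in the E14.5 lists. The median over the autosomal islands of a list was 16.3 to 21.7, and HoxB lay above it in the E12.5, E14.5 and AE lists and below it in both ISC lists. Of all ChIP reads in its islands, ISC replicate 1 had 0.231% in the HoxB islands (Wilson 95% interval 0.227 to 0.235%). This was the lowest share, and the highest was 0.448% in E14.5 replicate 1 (0.441 to 0.456%). The HoxB islands were counted whole, with their parts beyond the window, so these shares cover different lengths between lists. Relative to their share of the called length, the HoxB islands held 1.23 to 2.29 times the reads, the lowest in ISC replicate 2 and E12.5 replicate 1 and the highest in ISC replicate 1.

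The gaps between islands clustered in 2 places, one on the Hoxb1 side of the Hoxb13-end island and one ahead of the Hoxb1 end. The first lay between the Hoxb13-end stretch and the longest one (96070801 to 96111200, 40.4 kb), where 7 of 8 libraries had at least 1 gap and ISC replicate 1 had none. E12.5 replicate 1 had no island over 38.4 kb of it (96072801 to 96111200), the longest gap of any library. E12.5 replicate 2 had its longest gap here too, 9.2 kb (96080601 to 96089800), and E14.5 replicate 1 one of 9.6 kb (96070801 to 96080400). E14.5 replicate 2 had a gap of only 1.8 kb there. In ISC replicate 2 the longest gap was 9.6 kb (96097401 to 96107000), in AE replicate 1 1.4 kb (96101601 to 96103000) and in AE replicate 2 5.2 kb (96082801 to 96088000). The gaps had different borders, and 6 libraries each had a gap over 1 short stretch, 96086201 to 96087800 (1.6 kb), which was called in ISC replicate 1 and AE replicate 1 and in no other library.

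Islands that stood alone in this interval had lower folds than their neighbours. Choosing islands that stand alone leaves out stronger ones that ran through the interval. Those were the islands of E14.5 replicate 2 (folds 4.02 and 4.38) and of ISC replicate 1 (3.96). Over 5 lists the folds of the islands that stood alone ran from 1.59 in AE replicate 1 to 1.90 in E12.5 replicate 2. Each was lower than the fold of both the Hoxb13-end and the longest-stretch island of its own list. The counting intervals overlapped those of both in ISC replicate 2 (1.34 to 2.19) and for 1 island of AE replicate 2 (1.25 to 2.60). Within their lists these islands stood above the middle, with 55.1% to 82.6% of all islands lower in fold. Islands are what passed the authors' thresholds, so a gap does not show that the mark was absent.

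The second place, 96207801 to 96226000 (18.2 kb), lay ahead of the last shared stretch at the Hoxb1 end. ISC replicate 1 and AE replicate 1 covered it whole. E12.5 replicate 1 had no island in all 18.2 kb, and the gaps of the other 5 libraries were shorter: 4.0 kb (96221201 to 96225200) in E12.5 replicate 2, 1.2 kb and 1.2 kb in E14.5 replicate 1, 1.2 and 5.4 kb in E14.5 replicate 2, 1.2 and 3.0 kb in ISC replicate 2, and 1.2 and 1.2 kb in AE replicate 2. Each of the remaining 6 intervals between shared stretches was 1.2 to 2.0 kb long, and 1 or 2 libraries had a gap there. The smallest distance between islands was 1200 bp in all 8 lists, so these short gaps are the shortest the lists can show.

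**Figure D3:**
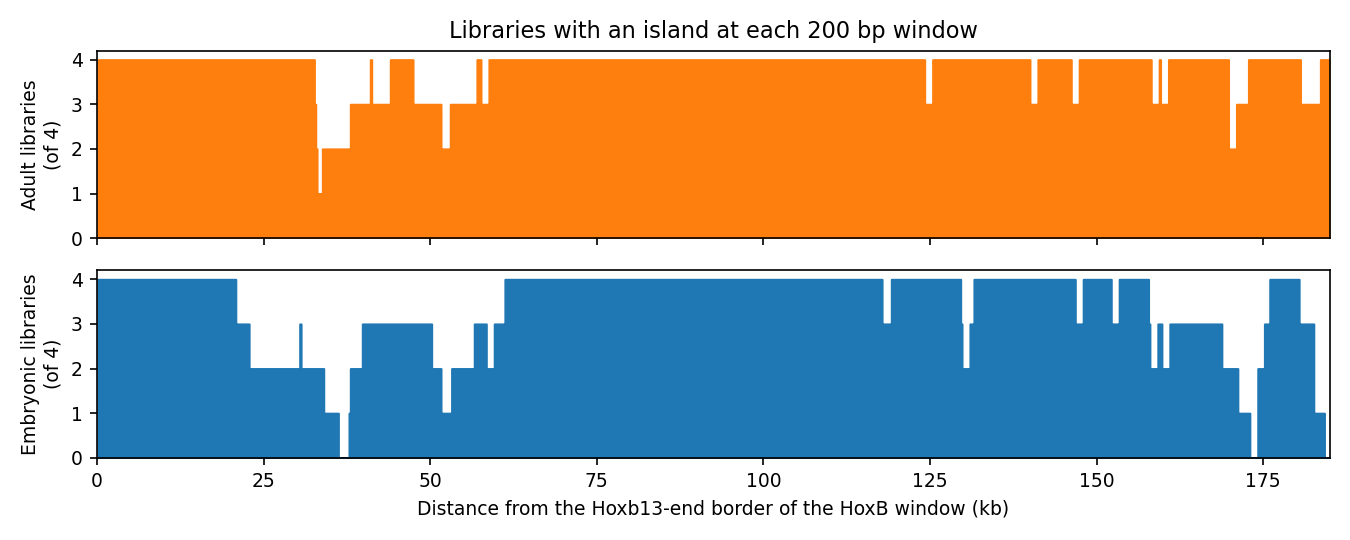
Number of adult (upper panel) and embryonic (lower panel) libraries, of 4 each, with an island at each 200 bp window, by distance in kb from the Hoxb13-end border. Both panels stay at 4 over the 56.6 kb shared stretch and drop between it and the Hoxb13 end and again near the Hoxb1 end, and the embryonic count falls to 0 in both places.

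The embryonic lists left more of the window uncovered than the adult ones on average, mostly between the Hoxb13-end and the longest shared stretch and towards the Hoxb1 end, but the difference did not exceed the spread between libraries. Adult libraries covered 94.2 ± 6.67% of the window and embryonic libraries 83.7 ± 11.2% (SD, n = 4 each), a difference of 10.5 percentage points (exact permutation test, two-sided p = 0.200, with 0.0286 the smallest the design allows). The difference was 5.13 points without E12.5 replicate 1 and 19.5 points with islands of fold 1.5 or more. The test treats replicates of a population as separate units. Genome-wide, adult lists covered 1.42 percentage points more than embryonic ones on average, which rests on ISC replicate 1 (9.14%). The other adult lists covered 2.30% to 3.45% of the genome, against 2.37% to 4.13% in the embryonic lists. In 5 equal segments of 37 kb numbered from the Hoxb13 end, adult coverage averaged 93.6 ± 5.62% and embryonic coverage 77.0 ± 16.6% in segment 1, and 86.5 ± 16.5% and 74.3 ± 27.4% in segment 2 (SD, n = 4 each). Segment 3 was fully covered in all 8 libraries. Segment 4 had 97.6 ± 3.11% in adult and 96.1 ± 3.04% in embryonic libraries, and segment 5, at the Hoxb1 end, 93.5 ± 9.17% and 71.2 ± 15.2% (SD, n = 4 each).

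In segment 5 the ISC libraries had 100% and 80.5% and the AE libraries 100% and 93.5%, against 48.6% and 79.5% in the E12.5 and 81.1% and 75.7% in the E14.5 libraries. ISC replicate 2 lay just below E14.5 replicate 1, so the groups overlapped even here. In segment 2 ISC replicate 2 had 63.2% and was below 3 of the 4 embryonic libraries, and E12.5 replicate 1 had 34.6%. The segments are shown as descriptions, with no test.

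**Figure D4:**
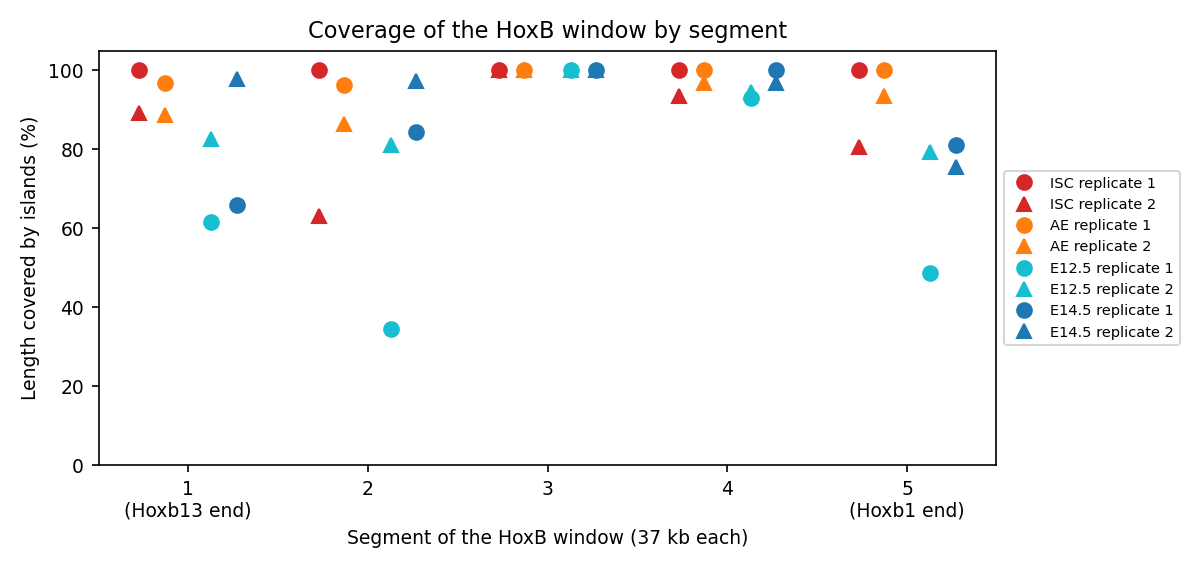
Share of each 37 kb segment of the HoxB window that lay in islands, in percent, for each library; adult libraries (ISC, AE) are drawn left of embryonic ones (E12.5, E14.5), circles are replicate 1 and triangles replicate 2. Segment 3 is at 100% in all 8 libraries, and E12.5 replicate 1 is lowest in segments 1, 2, 4 and 5.

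Stretches that parted the adult from the embryonic libraries came to 2.0 kb, 1.08% of the window, and were called in all 4 adult and no embryonic library. Over the genome, 1.2% of the 200 bp windows called anywhere did so, so the HoxB share is near the background. Only places without an island in any embryonic library could count. Those were 96086201 to 96087800 (1.6 kb), 96223001 to 96224200 (1.2 kb) and 96234201 to 96235000 (0.8 kb). High embryonic coverage thus limited the HoxB share, which is a description. The only adult-only stretch of 1 kb or more was 96223001 to 96224200 (1.2 kb), just ahead of the Hoxb1-end shared stretch. The reverse, called in all 4 embryonic and no adult library, was 0 kb in the window and 0.38% over the genome. In the window it could only be 0, because ISC replicate 1 covered all of it. Without that library it was 0 kb too, though AE replicate 1 left only 2.6 kb uncovered.

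Between E12.5 and E14.5 the cluster had gained length and no lost length, within the differences between replicates and with little room for a loss. The E14.5 libraries covered 89.9 ± 5.12% and the E12.5 libraries 77.6 ± 14.1% (SD, n = 2 each), a difference of 12.3 percentage points (exact permutation p = 0.667, two-sided; 2 against 2 allows none below 0.333). It was 2.32 points without E12.5 replicate 1 and 22.3 points without E12.5 replicate 2. Length gained, called in both E14.5 and neither E12.5 library, was 10.0 kb, 5.51% of the called length of the window beside 9.56% over the genome. E12.5 replicate 2 left 23.0 kb of the window uncovered, so no more than that could be gained. Length lost was 0 kb, beside 1.36% over the genome. Length could be lost only where neither E14.5 library had an island. Those places were 96086201 to 96087800 (1.6 kb), 96223001 to 96224200 (1.2 kb) and 96232601 to 96235000 (2.4 kb). Gains of 1 kb or more were 96080601 to 96084000 (3.4 kb), 96088001 to 96089800, 96100201 to 96101600 and 96108401 to 96109600, all between the Hoxb13 end and the longest shared stretch, and 96179801 to 96181000 and 96224201 to 96225200 on the Hoxb1 side. Each borders an island of at least 1 E12.5 library. Kept in all 4 libraries was 116 kb, 63.9% of the called length beside 9.87% over the genome. The gained length rests on E12.5 replicate 2: it was 34.8 kb without that library, since E12.5 replicate 1 alone then sets what counts as absent. The lost length was 4.2 kb without E14.5 replicate 2, 1.6 kb without E12.5 replicate 2 and 1.2 kb without E14.5 replicate 1.

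From E14.5 to adult stem cells most of the cluster stayed covered. The ISC libraries covered 92.6 ± 10.4% and the E14.5 libraries 89.9 ± 5.12% (SD, n = 2 each), a difference of 2.76 percentage points (exact permutation p = 1, two-sided). Its direction turned without ISC replicate 1 (-4.59 points) and without E14.5 replicate 1 (-0.865 points). Gained length was 2.6 kb, 1.41% of the called length beside 5.97% over the genome, in 2 stretches, 96223001 to 96224200 and 96233601 to 96235000, both at the Hoxb1 end. Length could be gained only where neither E14.5 library had an island. Those places were 96086201 to 96087800 (1.6 kb), 96223001 to 96224200 (1.2 kb) and 96232601 to 96235000 (2.4 kb). The gained share thus could not have reached that of the genome. Lost length was 0 kb beside 4.14% over the genome. That 0 was fixed in advance, because ISC replicate 1 covered the whole window. In all 4 libraries 142.2 kb were kept (76.9%, beside 8.12% over the genome). Without ISC replicate 1 the lost length was 10.6 kb. The gained length was 13.6 kb without E14.5 replicate 2, 5.2 kb without ISC replicate 2 and 4.6 kb without E14.5 replicate 1.

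From stem cells to enterocytes most of the cluster stayed covered. The AE libraries covered 95.8 ± 3.90% and the ISC libraries 92.6 ± 10.4% (SD, n = 2 each), a difference of 3.19 percentage points (exact permutation p = 1, two-sided) that became -4.16 points without ISC replicate 2 and -2.53 points with 50 kb added on both sides. Gained length was 0 kb beside 0.921% over the genome, and lost length 0.2 kb, 0.108% of the called length beside 4.19%. Kept in all 4 was 151 kb, 81.6% beside 9.05%. ISC replicate 1 covered the whole window, so nothing could be gained over it, and without that library the gain was 19.6 kb. AE replicate 1 left 2.6 kb of the window uncovered, so no more than that could be lost. The lost length was 6.6 kb without AE replicate 1, 1.0 kb without ISC replicate 2 and 0.4 kb without AE replicate 2.

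Over HoxB, libraries overlapped to a similar degree within and between groups. The Jaccard index, the length called in both libraries divided by that called in either, averaged 0.841 over the 4 replicate pairs inside the window, 0.844 over the 8 pairs of different groups of one kind, and 0.831 over the 16 pairs of an adult with an embryonic library. Over the genome the same averages were 0.298, 0.268 and 0.204. The highest pair in the window was AE replicate 1 with ISC replicate 1, at 0.986, and the lowest ISC replicate 1 with E12.5 replicate 1, at 0.676. ISC replicate 1 covered the whole window, so its index with any library equals that library's coverage, and with coverage this high the index leaves little room for groups to differ.

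The outer borders of the domain differed between lists. On the Hoxb13 side, the first island over the window began at 96036201 and 96023601 in the E12.5 lists, 96017401 and 96013001 in the E14.5 lists, and 96004601 and 96019401 for ISC, that is 13.8 to 45.4 kb below the window, towards Ttll6. In AE it began at 96049601 and 96050001, at the border itself. A separate AE island lay just below, from 96010201 to 96047600 in replicate 1 (fold 1.88) and from 96014401 to 96048200 in replicate 2 (fold 2.05). The stretch 96048201 to 96049600 (1.4 kb) was not called in either AE library and was called in the other 6. The AE border is thus a break of 2.0 and 1.8 kb in a domain that went on below the window in all 8 libraries. Its width is near the 1200 bp that is the least the lists can show.

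On the Hoxb1 side, the last island over the window ended inside it in the embryonic lists and beyond it in the adult ones. It ended at 96248200 and 96245400 for ISC and at 96248200 and 96238600 for AE, against 96234200 and 96232600 in the E12.5 lists and 96230400 and 96232600 in the E14.5 lists. By this measure the adult and the embryonic borders did not overlap, and the adult ones lay 3.6 to 13.2 kb past the window, towards Skap1. The split depends on where the window ends. In ISC replicate 2 the Hoxb1-end island ended at 96230600, and a separate island from 96233601, after a gap of 3.0 kb, set the border. E12.5 replicate 1 had a further island from 96235801 to 96244000, after a break of 1.6 kb and with a fold of 1.53. That island began outside the window and was not counted, but it ran past the AE replicate 2 border. The embryonic libraries were thus not all without the mark there.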

How the data were processed

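H3K27me3 ChIP-seq was deposited as 1 island list per ChIP library (8 lists, 4 groups of 2); the 4 inputs enter only as control reads. Per the submitters' processing notes, bcl2fastq 1.8.4, Bowtie 1.1.2, SAMtools 1.2 and SICER 1.1 were used with build mm9; their settings are not given in the sources used here. The lists have no header, and their columns were read from the values. The deposited ChIP and control read counts per island are whole numbers, not normalized. The deposited fold ratio, p-value and FDR (at most 0.01) of each island are the authors' own, and islands were called separately per replicate.

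Islands were painted on a 200 bp grid (Python 3.11.15, numpy 2.4.6, scipy 1.17.1), after tests of the painting and of the permutation test on simulated lists. Reads outside islands are not listed, so no count test across libraries was possible and total depth is unknown. The share of the window covered was compared by exact two-sided permutation tests over libraries. Gained length lay in both later and neither earlier library, lost length the reverse, and both are set beside the same over the genome. Named were all 10 genes in order, shared, gained, lost and parting stretches of 1 kb or more, gaps, and outer borders; single shorter gaps and flanking islands were chosen after their values were seen. The window, the members and the lists were chosen with earlier results of these data known. No genome or gene annotation of mm9 was used here, so counts of covered gene starts, planned for that case, were not made. Nothing in the labels gives a sequencing batch. Alternatives were stricter islands (FDR of 1e-10 or less, fold of 1.5 or more), equal covered length, leaving out each library, a wider window and a replicate block.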

Additional observations from a re-analysis of the deposited data

Results flagged for a closer look

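Of 16 sets of 4 libraries screened for a library far from the others, 2 were picked out; chance picks about 1 in 20. The fold over control summed over the HoxB islands was 3.96 in ISC replicate 1, against 2.04 in ISC replicate 2 and 1.96 and 2.14 in AE. The list of ISC replicate 1 also covered the most length, 241 Mb. In segment 5, at the Hoxb1 end, E12.5 replicate 1 covered 48.6%, against 79.5% in E12.5 replicate 2 and 81.1% and 75.7% at E14.5. This list also had the lowest median fold, 1.38. The part of either property in these values was not tested.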

How the results depend on the processing

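Of the recomputed values, 134 kept their direction and stayed within 1.5 times the reported length or count, or on the same side of the test; 15 lengths or counts moved further and 4 differences changed sign. The length gained from E14.5 to ISC was 4.0 kb with islands of FDR 1e-10 or less and 5.6 kb with islands of fold 1.5 or more, beside 2.6 kb. The difference in coverage, AE minus ISC, was -2.53 points with 50 kb added on both sides. Over the leave-one-out repeats, gained length ran from 10.0 to 34.8 kb (E12.5 to E14.5), 2.6 to 13.6 kb (E14.5 to ISC) and 0 to 19.6 kb (ISC to AE), and lost length from 0 to 4.2 kb, 0 to 10.6 kb and 0.2 to 6.6 kb over the same steps. E14.5 minus E12.5 coverage ran from 2.32 to 22.3 points, AE minus ISC from -4.16 to 10.5 points and ISC minus E14.5 from -4.59 to 10.1 points, with -0.865 without E14.5 replicate 1. Leaving a library out leaves 1 in its group, which then alone decides what is gained or lost. Adult minus embryonic coverage stayed positive in all alternatives run, at 5.13 points (without E12.5 replicate 1) to 19.5 points (islands of fold 1.5 or more), with p of 0.0857 to 0.400. With a replicate block, p was 0.278 for adult minus embryonic (10.5 points), 0.500 for E14.5 minus E12.5 and 1 for the other steps. Deviations of same-numbered libraries correlated at -0.0336 to 0.0266 over the genome and at -0.182 to 0.191 over the window. These values gave no sign of pairing by number, but with 2 libraries per group they cannot exclude it. Uncovered runs of the window, with those cut off at its Hoxb1-end border included, numbered 37 at 1 kb or more and 15 at 3 kb or more. Reads outside islands are not listed, so depth limits which weak stretches were called to an unknown degree.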

Other observations

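Beyond the Hoxb1 end, towards Skap1, the next 50 kb were covered to 94.0% and 54.8% in the ISC lists and 60.4% and 54.0% in the AE lists, against 31.6% and 18.8% in the E12.5 lists and 0% and 44.0% in the E14.5 lists. The adult and the embryonic values did not overlap. Beyond the Hoxb13 end, towards Ttll6, the 50 kb were covered to 90.8% and 70.4% (ISC) and 75.6% and 67.6% (AE), against 48.8% and 78.4% (E12.5) and 85.6% and 83.2% (E14.5), and the values overlapped. These flanks were looked at after the islands over the window had been seen, and no test was made.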
